A study of Mus musculus with 22 samples.

Results

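The mitochondrial genome carries 37 of the 55487 genes in the deposited count tables, chosen here as every row placed on chromosome MT: 13 protein genes, 2 rRNA genes and 22 tRNA genes. They were measured in 22 RNA-seq libraries from wild-type male C57BL/6 mice: splenic monocytes kept 24 hours in vehicle (6 libraries, replicates 1 to 6) or in ox-LDL, low-density lipoprotein that has been oxidised, at 50 µg/mL (5 libraries, 7 to 11), and macrophages grown from such cells over 5 days in 200 ng/mL PMA, the phorbol ester phorbol myristate acetate, and then given vehicle (5 libraries, A to E) or the same ox-LDL dose (6 libraries, G to L). The SMARTer low-input kit selected polyadenylated RNA, so each value covers the part of a gene's transcripts that this selection retains. PMA and 5 more days of culture came with the macrophages only, and these cannot be told apart from the cell type.

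Mitochondrial DNA is transcribed from both strands into long precursors, which are cut largely at the tRNAs that lie between the other genes. The proteins are subunits of the respiratory chain complexes and of ATP synthase, and the rRNAs form the core of the mitochondrial ribosome that makes them. Most mitochondrial mRNAs and the rRNAs carry short poly(A) tails, while mature tRNAs end in CCA. Nuclear chromosomes hold inserted pieces of mitochondrial DNA, and reads inside an identical stretch cannot be assigned to either place by sequence.

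Those nuclear pieces concern most of the protein genes, so their sequences come before the values. Aligned to the other transcripts of GENCODE M21, 9 of the 13 protein genes had a stretch of at least 100 bases at 95% identity or more in 11 nuclear gene models, all annotated as pseudogenes. Of these, 7 lie side by side on the minus strand of chromosome 1 and read in the mitochondrial order. The start of mt-Co3 (chrMT:8607-9390, plus strand, cytochrome c oxidase subunit 3) is shown with its copy Gm28437 (chr1:24613189-24613971) because the pair shares 783 bases without a difference, and mt-Atp6 (chrMT:7927-8607, plus strand, an ATP synthase subunit) with Gm10925 (chr1:24613974-24614651) because that pair shares 678. The first 60 bases of each read, on the GRCm38 positions of the tables:
mt-Co3: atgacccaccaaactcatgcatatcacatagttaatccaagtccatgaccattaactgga
Gm28437: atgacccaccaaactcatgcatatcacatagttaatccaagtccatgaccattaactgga
mt-Atp6: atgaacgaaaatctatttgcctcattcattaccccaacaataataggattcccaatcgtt
Gm10925: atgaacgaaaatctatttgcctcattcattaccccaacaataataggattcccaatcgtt

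In 2 of the 7 pairs on chromosome 1 a single base differed. Gm29216 (chr1:24615706-24616197) matches the last 483 bases of mt-Co1 (chrMT:5328-6872, cytochrome c oxidase subunit 1) except for A1066T, and Gm28438 (chr1:24612775-24613119) matches 345 bases of mt-Nd3 (chrMT:9459-9806, a complex I subunit) except for T3C. Positions count from 1 at the 5′ end of the mitochondrial gene, with its base first and that of the copy last. These are the only bases in those alignments by which a read could be placed, and they are in capitals:
mt-Co1: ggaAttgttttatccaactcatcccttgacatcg
Gm29216: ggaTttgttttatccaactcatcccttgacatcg
mt-Nd3: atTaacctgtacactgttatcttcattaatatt
Gm28438: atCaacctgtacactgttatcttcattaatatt

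The other copies on chromosome 1 were Gm28661 of mt-Co2 (681 identical bases), Gm10222 of mt-Nd4l (294) and Gm28439 of mt-Nd4 (876 of 1378 bases). Pieces on chromosomes 2 and 13 (Gm13339, Gm13340, Gm13341 and Gm4076) were 95.2% to 97.6% identical to part of mt-Nd2, all of mt-Co1, all of mt-Co2 and part of mt-Nd5. No such gene model was found for mt-Nd1, mt-Nd6, mt-Cytb, mt-Atp8, the rRNA genes or the tRNA genes; nuclear sequence outside annotated genes was not searched.

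A pair of tRNA genes held nearly all tRNA counts, and both are printed with the anticodon in capitals: mt-Tp (tRNA for proline, chrMT:15356-15422) and mt-Tq (tRNA for glutamine, chrMT:3772-3842). Both lie on the minus strand.
mt-Tp: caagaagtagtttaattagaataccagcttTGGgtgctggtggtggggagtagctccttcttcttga
mt-Tq: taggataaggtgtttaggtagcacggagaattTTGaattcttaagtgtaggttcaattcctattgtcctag

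In units of 1000000, library totals ran from 37.3 to 50.3 counts. Monocyte libraries held markers of other cell types: summed neutrophil markers (10 genes) came to 26756 to 42013 counts per 1000000 (CPM, from totals scaled by TMM factors) in monocyte replicates 5, 6, 10 and 11 and to 3987 to 5076 in the other 7, against 2.12 to 8.26 in macrophages. Erythroid markers (9 genes) came to 487 to 14551 CPM in monocytes and 73.5 to 165 in macrophages, and dendritic cell markers (8 genes) to 7237 to 12201 and 1.38 to 17.7. B cell markers (8 genes) came to 240.4 to 904 CPM in monocytes and 33.1 to 67.7 in macrophages, T and NK cell markers (9 genes) to 70.0 to 160 and 11.1 to 109, and platelet markers (6 genes) to 28.0 to 129 and 55.6 to 271. Macrophage markers (10 genes) came to 8952 to 18133 CPM in monocytes and 54246 to 76835 in macrophages, and the 10 genes listed as monocyte markers were also higher in macrophages, at 4025 to 18918 and 21645 to 39582. Of the latter, Csf1r had 791 ± 237 CPM in vehicle monocytes (SD, n = 6) and 4564 ± 958 in vehicle macrophages (n = 5), and Lyz2, Cd14, Cx3cr1, Fcgr1 and Itgam also had higher means in vehicle macrophages, while Ly6c2 had 107 ± 112 and 1.30 ± 0.85, and Ccr2, Nr4a1 and Spn also had lower means there. Within macrophages, libraries C, D, I and J stood apart on the first principal component, which held 40.0% of the variance. Fewer cells of a type and less RNA per cell cannot be told apart in such bulk libraries, and the part of other cells in the results below was not tested beyond the values given without these libraries or without marker genes.

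Mitochondrial genes took a small share of every library, and a lower one in macrophages. In vehicle monocytes the share was 0.206% at the lowest, 0.264% at the median and 0.335% at the highest. With ox-LDL, monocyte libraries 7 to 11 held 0.263%, 0.299%, 0.245%, 0.228% and 0.329%. Vehicle macrophages A to E held 0.190%, 0.148%, 0.135%, 0.0828% and 0.0938%, and ox-LDL macrophages 0.0955% at the lowest, 0.106% at the median and 0.143% at the highest. On these totals every macrophage library was below every monocyte library, and the 2 treatments overlapped within each cell type. With totals scaled by TMM factors, the groups overlapped with vehicle (log2 ratio -0.89) and not with ox-LDL (-1.14).

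Group means were 0.262% ± 0.0467 (SD, n = 6) and 0.273% ± 0.0411 (n = 5) in monocytes with vehicle and ox-LDL, and 0.130% ± 0.0433 (n = 5) and 0.111% ± 0.0168 (n = 6) in macrophages. On the log2 scale macrophages were lower than monocytes by a mean difference of -1.06 with vehicle and -1.29 with ox-LDL, against a pooled SD between libraries of 0.38 and 0.21. The difference was -1.08 and -1.28 without monocyte replicates 5, 6, 10 and 11, and -0.90 and -1.37 without macrophage libraries C, D, I and J. Taking the neutrophil and erythroid marker genes out of the totals gave -1.09 and -1.33. With ox-LDL against vehicle the mean log2 difference was 0.07 in monocytes (pooled SD 0.24) and -0.17 in macrophages (pooled SD 0.36). Both values moved with single libraries. In macrophages it was -0.02 without library A, -0.32 without D and -0.27 without E, and -0.40 (pooled SD 0.34) without C, D, I and J; in monocytes it was -0.0047 without replicate 11. Groups overlapped in all of these. The share sums over genes that were chosen together and was given no p-value.

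Protein and rRNA genes were both lower in macrophages. The 13 protein genes took 0.152% ± 0.0395 and 0.160% ± 0.0224 of monocyte libraries (vehicle, then ox-LDL) and 0.0775% ± 0.0264 and 0.0746% ± 0.00689 of macrophage libraries, and the 2 rRNA genes 0.110% ± 0.0335 and 0.113% ± 0.0236 against 0.0524% ± 0.0171 and 0.0366% ± 0.0112 (n = 6, 5, 5 and 6). On these unscaled totals, protein shares did not overlap between the cell types with either treatment, and rRNA shares did not overlap with ox-LDL but did with vehicle. The gap of the protein shares with vehicle was narrow, with 0.1145% in macrophage library A and 0.1159% in monocyte replicate 6. Replicates 5 and 6, high in neutrophil markers, held 0.116% to 0.119%, and the other 4 vehicle monocyte libraries 0.147% to 0.225%. With totals scaled by TMM factors library A lay above replicate 6, so the protein shares overlapped with vehicle. The tRNA genes held 15 to 34 counts per monocyte library and 42 to 102 per macrophage library.

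**Figure D1:**
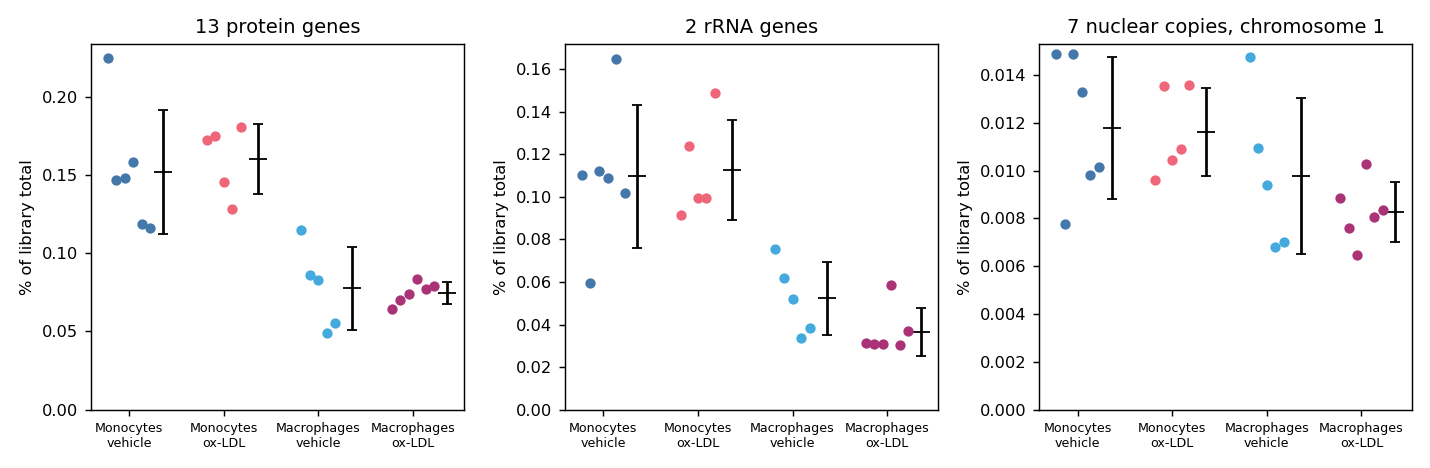
Share of each library's total counts (%, linear axis from 0) in the 13 protein genes, the 2 rRNA genes and the 7 nuclear copies on chromosome 1; each point is 1 library and bars are mean ± SD. On these unscaled totals, protein shares in macrophages (0.0489% to 0.115%) all lie below those in monocytes (0.116% to 0.225%), by a narrow gap with vehicle, while the copies overlap between the cell types.

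Per kilobase of gene, the order of the protein genes spanned more than 2 orders of magnitude. In vehicle monocytes mt-Co1 was highest at 311 CPM per kilobase, followed by mt-Cytb (302), mt-Nd1 (184), mt-Nd5 (96.5) and mt-Nd4 (66.7), and mt-Atp8 was lowest at 0.825. These 3 leaders, cytochrome c oxidase subunit 1, cytochrome b of complex III and a complex I subunit, held ranks 1 to 3 in that order in all 4 groups. In vehicle macrophages they stood at 223, 144 and 92.4. The libraries' values of mt-Co1 and mt-Cytb overlapped in every group but the ox-LDL macrophages, where all of mt-Co1 were above all of mt-Cytb. Within single libraries, mt-Co1 was above mt-Cytb in every ox-LDL monocyte and every macrophage library, but not in every vehicle monocyte library.

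The genes whose length is nearly all matched by a copy on chromosome 1 stood in the middle of that order or below it in monocytes. So did mt-Nd2 (8th) and mt-Atp8 (last), which have no copy there. How reads shared with a copy were counted is not given in the sources used here, and these levels depend on it. In vehicle monocytes mt-Co3 was at 47.5 CPM per kilobase, mt-Atp6 at 27.3, mt-Co2 at 19.9, mt-Nd3 at 1.57 and mt-Nd4l at 1.25. The place of mt-Co3 was the 7th of 13 in monocytes and the 4th in macrophages, at 56.8 with vehicle and 48.9 with ox-LDL. The rRNA mt-Rnr2 (large subunit, chrMT:1094-2675) was above every protein gene per kilobase, at 601 in vehicle monocytes and 310.3 in vehicle macrophages, and mt-Rnr1 (small subunit, chrMT:70-1024) was at 82.9 and 57.1.

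**Figure D2:**
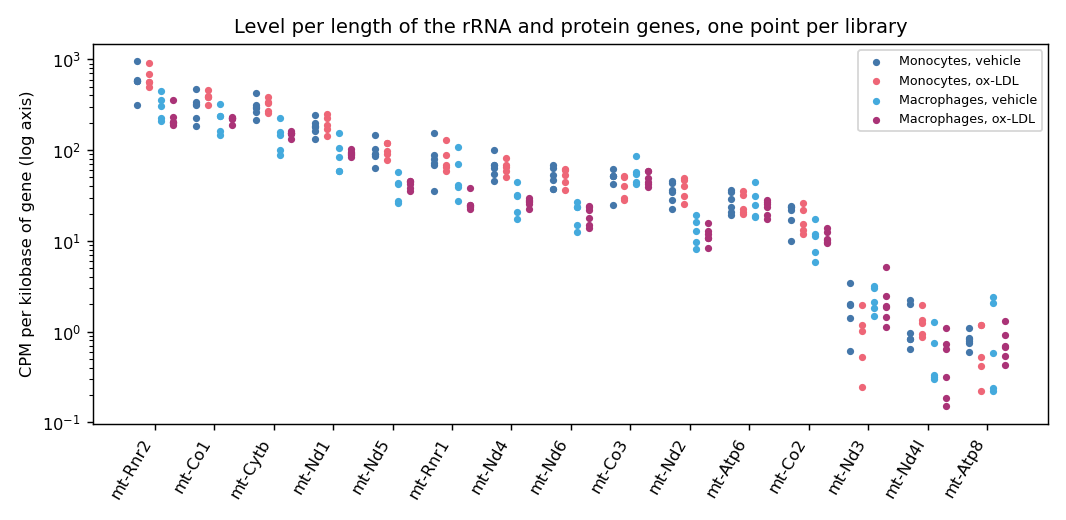
Level per length (CPM per kilobase of gene, log axis) of the 2 rRNA and 13 protein genes in each library, ordered by the mean of vehicle monocytes; each point is 1 library and values of 0 are not drawn. Most macrophage points lie below the monocyte points for mt-Cytb, mt-Nd1, mt-Nd5, mt-Nd4, mt-Nd6 and mt-Nd2, and among them for mt-Co3 and mt-Atp6.

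Between cell types, single genes were tested with edgeR's quasi-likelihood test over all genes that passed a filter on low counts, and called at a Benjamini-Hochberg adjusted p under 0.05. With vehicle, 10 of the 16 mitochondrial genes tested were called, 2 higher and 8 lower in macrophages, where 63.7% of all genes tested were called (28.5% higher and 35.1% lower). With ox-LDL it was 13 of 16, 2 higher and 11 lower, where 65.4% of all genes were called (30.3% higher and 35% lower). The share called is thus near the background with vehicle. The median log2 fold change was -0.99 for the 16 genes against -0.09 for all genes with vehicle, and -1.13 against -0.07 with ox-LDL. Many other genes fell further: 17.9% of all genes tested with vehicle and 14.3% with ox-LDL were below mt-Nd2, the lowest of the 16. Groups did not overlap for 6 of the 16 with vehicle (49.3% of all genes) and 10 with ox-LDL (49.5%). A filter on low counts keeps a gene that is high in 1 group: mt-Tq did not pass it between monocyte groups, nor mt-Nd4l between macrophage groups, so both passed here through the group where they are high, and the counts above hold them. A further 20 tRNA genes and mt-Atp8 did not pass it in these 2 comparisons.

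The 5 complex I subunits with ample counts fell in macrophages. mt-Nd2 (chrMT:3914-4951) had 23.5 CPM at the lowest, 37.0 at the median and 47.8 at the highest in vehicle monocytes, and 20.03, 16.7, 13.4, 8.55 and 10.0 in vehicle macrophages A to E. All macrophage libraries were below all monocyte libraries, with a log2 fold change of -1.49 ± 0.24 (SE; edgeR adjusted p = 9.17e-05). With ox-LDL, mt-Nd2 had 41.7, 48.1, 32.2, 26.2 and 51.6 CPM in monocytes 7 to 11 and 8.64 to 16.4 in macrophages, again without overlap, and the log2 fold change was -1.77 ± 0.19 (edgeR adjusted p = 2.9e-06).

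The log2 fold changes of the other 4 lay between -1.46 and -1.07. With vehicle and with ox-LDL the log2 fold change was -1.07 and -1.14 for mt-Nd1, -1.27 and -1.34 for mt-Nd4, -1.37 and -1.33 for mt-Nd5, and -1.41 and -1.46 for mt-Nd6, and each was called both times. mt-Nd6 (chrMT:13552-14070) is the only protein gene on the minus strand, and it had 19.5 to 35.3 CPM in vehicle monocytes and 6.49 to 13.9 in vehicle macrophages. The strand setting of the counting is not given in the sources used here, so reads of a minus-strand gene and of the plus-strand precursor across it cannot be told apart.

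The low genes of complex I gave wide errors. mt-Nd4l, with 2 to 30 counts a library, had log2 fold changes of -1.11 ± 0.50 with vehicle (edgeR adjusted p = 0.0668) and -1.31 ± 0.47 with ox-LDL (adjusted p = 0.0253). mt-Nd3, with at most 76 counts, had 0.51 ± 0.62 (edgeR adjusted p = 0.487) and 1.19 ± 0.51 (adjusted p = 0.0542), neither called. With vehicle mt-Nd4l was called with scaling by total counts and without monocyte replicate 3 or macrophage library A. Its ox-LDL call ended with no filter on low counts and without monocyte replicate 8 or macrophage library K. That call also ended without monocyte replicates 5, 6, 10 and 11 together. mt-Nd3 was called with ox-LDL by DESeq2, by limma voom, and without monocyte replicate 11, macrophage library I or macrophage library K. Without monocyte replicates 5, 6, 10 and 11 together it was also called.

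Cytochrome b and 1 oxidase subunit, mt-Co2, were lower in macrophages than in monocytes with both treatments, and mt-Co1 was called lower with ox-LDL only. mt-Cytb (chrMT:14145-15288) had 248 CPM at the lowest, 339 at the median and 484 at the highest in vehicle monocytes. Vehicle macrophages A to E had 259, 183, 168, 102 and 114 CPM, and library A lay inside the monocyte range. It did so only through replicates 5 and 6 (248 to 303 CPM), while the other 4 vehicle monocyte libraries had 334 to 484. The log2 fold change of mt-Cytb was -1.14 ± 0.24 with vehicle (edgeR adjusted p = 0.000823) and -1.12 ± 0.11 with ox-LDL (adjusted p = 1.39e-06). mt-Co1 was not called with vehicle, at -0.56 ± 0.25 (edgeR adjusted p = 0.0643), and was called lower in macrophages with ox-LDL, at -0.88 ± 0.10 (adjusted p = 6.59e-06). With vehicle mt-Co1 was called in 7 of 18 alternatives. It was called with DESeq2, with scaling by total counts and with 1 fit over all 4 groups. It was also called without macrophage library A, monocyte replicate 3 or monocyte replicate 5, and without monocyte replicates 5, 6, 10 and 11 together. mt-Co2 had log2 fold changes of -0.95 ± 0.29 and -0.72 ± 0.20 (edgeR adjusted p = 0.0101 and 0.00707), but was not called with vehicle without macrophage libraries C, D, I and J (adjusted p = 0.0801).

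mt-Co3 and mt-Atp6 gave no call. mt-Co3 had 19.6 CPM at the lowest, 40.5 at the median and 48.7 at the highest in vehicle monocytes, and 67.1, 44.7, 42.9, 33.1 and 34.9 in vehicle macrophages A to E, so the groups overlapped. With ox-LDL it had 22.1, 40.1, 23.4, 31.7 and 40.6 CPM in monocytes 7 to 11 and 30.5 to 46.7 in macrophages. Its log2 fold change was 0.18 ± 0.22 (edgeR adjusted p = 0.492) and 0.23 ± 0.18 (adjusted p = 0.279), and that of mt-Atp6 was -0.07 ± 0.25 (adjusted p = 0.834) and -0.21 ± 0.18 (adjusted p = 0.315). Neither was called in any of the 18 alternatives of either comparison.

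**Figure D3:**
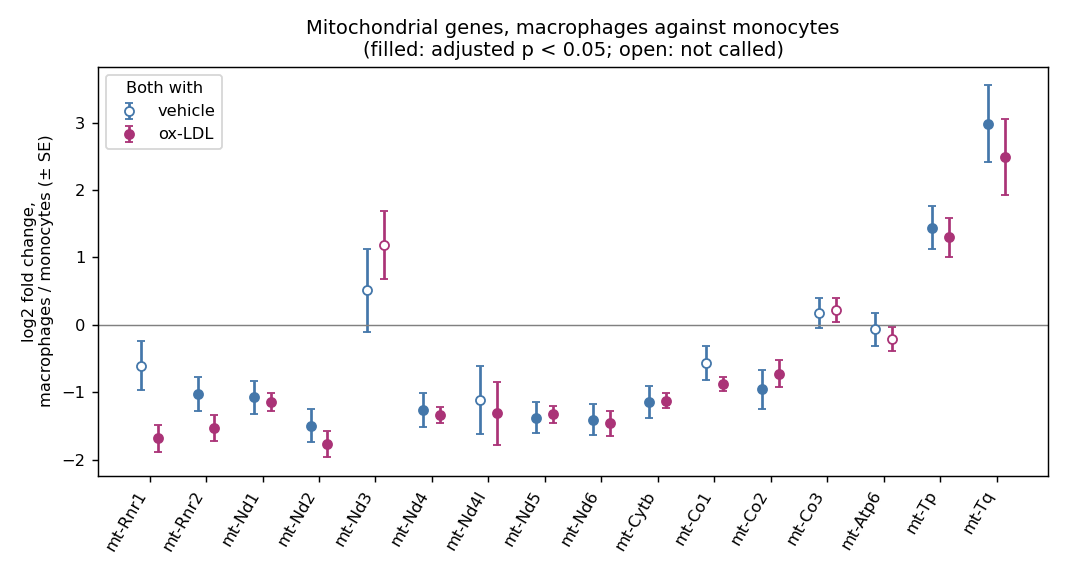
Log2 fold change of macrophages over monocytes (± SE) for each mitochondrial gene tested, with vehicle (blue) and with ox-LDL (purple); filled points are called at an adjusted p under 0.05. mt-Nd2 is lowest at -1.49 and -1.77, mt-Co3 and mt-Atp6 sit near 0, and mt-Tp and mt-Tq are above it.

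In 3 of the 7 pairs on chromosome 1 the nuclear copy held counts close to those of its gene. Over the 22 libraries mt-Co3 had 37247 counts and Gm28437 34702, so the copy held 48.2% of both, and 44.6% to 50.7% in single libraries. Gm10925 held 52.3% of the counts of itself and mt-Atp6 (19230 and 17543), and Gm28661 held 49.1% with mt-Co2 (9864 and 10232). For these 3 pairs, identical over at least 678 bases, a count in the mitochondrial row and a count in the chromosome 1 row were almost equally frequent. How reads that map to both places were treated is not given in the sources used here, and which place they came from cannot be told apart.

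The other 4 pairs on chromosome 1 were less even. Gm29216, one base off the last 483 bases of mt-Co1, had 34822 counts against 437086, and Gm28439, identical to the first 876 bases of mt-Nd4, had 2476 against 65217. Gm28438 had 201 counts against 616 for mt-Nd3, and Gm10222 had 341 against 269 for mt-Nd4l. Gm28439 held 3.66% of the counts of its pair although its whole length is identical to part of mt-Nd4. Of the copies elsewhere, Gm13340 had 22995 counts, Gm13341 6565, Gm4076 2115 and Gm13339 363, against 437086 for mt-Co1, 10232 for mt-Co2, 128642 for mt-Nd5 and 25846 for mt-Nd2.

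For the 5 pairs on chromosome 1 with the most counts, the log2 fold changes of copy and gene between cell types are given side by side. With vehicle the log2 fold change was 0.19 for Gm28437 beside 0.18 for mt-Co3, 0.04 for Gm10925 beside -0.07 for mt-Atp6, -0.82 for Gm28661 beside -0.95 for mt-Co2, -0.44 for Gm29216 beside -0.56 for mt-Co1, and -1.32 for Gm28439 beside -1.27 for mt-Nd4. With ox-LDL these pairs were 0.21 and 0.23, -0.18 and -0.21, -0.76 and -0.72, -0.91 and -0.88, and -1.43 and -1.34. Each of these 5 copies was called where its partner was called, and not where it was not. On chromosomes 2 and 13, Gm13340 had -0.37 and -0.65 (vehicle, then ox-LDL) beside -0.56 and -0.88 for mt-Co1, Gm13341 -0.89 and -0.71 beside -0.95 and -0.72 for mt-Co2, Gm4076 -1.23 and -1.17 beside -1.37 and -1.33 for mt-Nd5, and Gm13339 -0.67 and -1.11 beside -1.49 and -1.77 for mt-Nd2. Since the pairs share sequence and libraries, this is a description with no test.

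**Figure D4:**
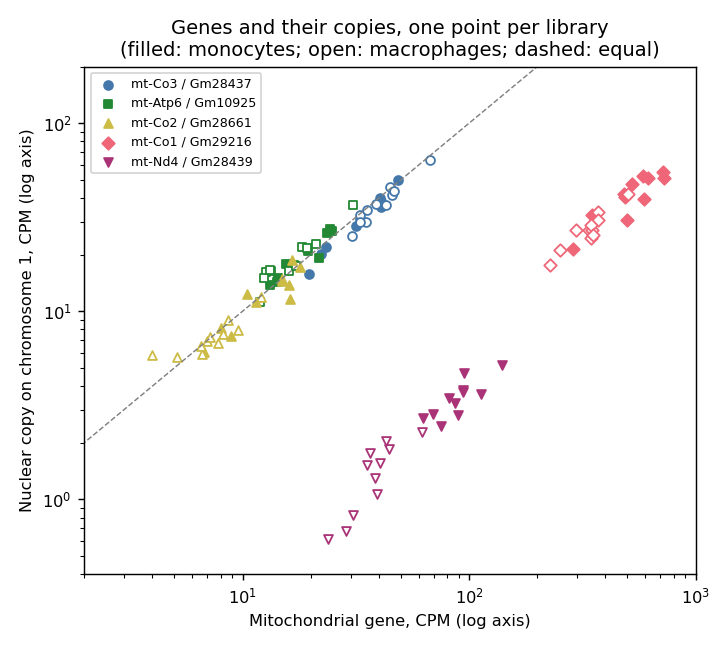
CPM in a mitochondrial gene (x axis, log) and in its copy on chromosome 1 (y axis, log), 1 point per library, monocytes filled and macrophages open; the dashed line marks equal values. The pairs of mt-Co3, mt-Atp6 and mt-Co2 lie along the line, and those of mt-Co1 and mt-Nd4 below it, with copies at 7.38% and 3.66% of the counts of the pair.

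The 7 copies together moved less between cell types than the mitochondrial genes. They held 4.50 ± 0.82 counts per 100 mitochondrial counts in vehicle monocytes, 4.27 ± 0.43 in ox-LDL monocytes, 7.55 ± 0.46 in vehicle macrophages and 7.47 ± 1.01 in ox-LDL macrophages (SD; n = 6, 5, 5 and 6), without overlap between cell types. Most counts of the 7 copies lay in Gm29216, Gm28437 and Gm10925 (34822, 34702 and 19230). Their partners mt-Co1, mt-Co3 and mt-Atp6 had log2 fold changes of -0.56, 0.18 and -0.07 with vehicle. The sum is set against all 37 genes and not against the partners, so it does not show that copies moved unlike their partners. Adding the counts of all 11 gene models to the mitochondrial ones gave shares of 0.278% ± 0.0495 and 0.289% ± 0.0431 in monocytes and 0.142% ± 0.0473 and 0.122% ± 0.0178 in macrophages.

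Among the rRNAs, mt-Rnr2 was lower in macrophages than in monocytes with both treatments. It had 500 CPM at the lowest, 919 at the median and 1509 at the highest in vehicle monocytes, and 702, 571, 485, 335 and 362 in vehicle macrophages A to E. Macrophages A and B lay inside the monocyte range only through replicate 2, the lowest monocyte library. The log2 fold change was -1.02 ± 0.25 with vehicle (edgeR adjusted p = 0.00246) and -1.53 ± 0.19 with ox-LDL (adjusted p = 1.07e-05), where groups did not overlap.

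mt-Rnr1 was lower in macrophages than in monocytes where both had ox-LDL, with a log2 fold change of -1.68 ± 0.20 (edgeR adjusted p = 6.95e-06). Between the cell types with vehicle it was not called, at -0.61 ± 0.36 (edgeR adjusted p = 0.16). Vehicle macrophages A to E had 103, 66.5, 39.3, 26.2 and 38.0 CPM against 34.0 at the lowest, 73.2 at the median and 146 at the highest in vehicle monocytes. Library A decided that call: without it the adjusted p was 0.0342. The ox-LDL macrophages had 21.5 CPM at the lowest, 23.4 at the median and 36.2 at the highest, and ox-LDL monocytes 7 to 11 had 56.5, 83.6, 61.5, 66.0 and 123.

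The tRNA counts went the other way. Of the 22 tRNA genes, 59 to 75 bases long, 8 had no count in any library, and mt-Tp and mt-Tq held 93.8% of the 991 counts. The other 20 together had 61 counts, at most 15 for a gene and at most 4 in a library. A count of 0 in the smallest library allowed a share of up to 8.04e-06%, for counting error only.

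mt-Tq had no count in 1 vehicle monocyte library, 0.0418 CPM at the median and 0.154 at the highest (8 counts), and 24, 17, 43, 14 and 14 counts in vehicle macrophages A to E (0.316 to 1.02 CPM), so the groups did not overlap. With ox-LDL it had 1, 8, 2, 8 and 2 counts in monocytes 7 to 11 and 8 to 32 in macrophages, where library K, at 8, met the monocyte range. The log2 fold change was 2.98 ± 0.57 with vehicle (edgeR adjusted p = 0.000405) and 2.49 ± 0.57 with ox-LDL (adjusted p = 0.00159). The counts in monocytes are so few that the fold changes depend on the prior count of the fit, and mt-Tq passed the filter through the macrophages, where it is high. With ox-LDL it did not pass in 6 of 18 alternatives, those without macrophage library G, H, I, J or L and that without C, D, I and J; it was called in the other 12.

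mt-Tp had 0.220 CPM at the lowest, 0.332 at the median and 0.486 at the highest in vehicle monocytes (10 to 24 counts), and 1.61, 0.963, 0.970, 0.686 and 0.677 in vehicle macrophages A to E (28 to 76 counts). It was higher in macrophages than in monocytes by a log2 fold change of 1.44 ± 0.32 with vehicle (edgeR adjusted p = 0.0014) and 1.30 ± 0.29 with ox-LDL (adjusted p = 0.00129), and groups did not overlap either time. mt-Tq shares 3 bases with mt-Ti on the other strand, and mt-Tp none with any mitochondrial gene. For both, reads of the opposite strand cannot be told apart from their own.

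With ox-LDL against vehicle no mitochondrial gene was called in either cell type. In monocytes 0 of 15 genes tested were called, where 0.0241% of all genes were, and the log2 fold changes ran from -0.66 to 0.32 with adjusted p from 0.639 to 0.995; 0 had an unadjusted p under 0.05, and DESeq2 also called 0. In macrophages 0 of 15 were called by edgeR, where 2.35% of all genes were, with 1 gene at an unadjusted p under 0.05 and 1 called by DESeq2. Protein genes in macrophages ran from -0.23 to 0.10, beside a median of 0.00 over all genes. None of the members had groups without overlap in either comparison, where 1.57% and 3.29% of all genes did.

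That 1 gene was mt-Rnr1. Its CPM in macrophages A to E and in ox-LDL macrophages are those given above, 54.5 ± 30.7 (SD, n = 5) and 25.2 ± 5.46 (n = 6), and they overlapped through libraries D (26.2) and J (36.2). The log2 fold change was -1.11 ± 0.29 with an edgeR adjusted p of 0.0626, and it was called in 6 of 17 alternatives, with adjusted p from 0.00689 to 0.178 over all of them. Without library D the adjusted p was 0.0248, without J 0.047 and without C, D, I and J 0.00689, where the log2 fold change was -1.56. Without library A the log2 fold change was -0.75 (adjusted p = 0.116).

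mt-Rnr2 had a log2 fold change of -0.42 ± 0.20 in the same comparison (edgeR adjusted p = 0.374). The counts of mt-Rnr1 per 100 of mt-Rnr2 were 14.6, 11.6, 8.11, 7.84 and 10.5 in vehicle macrophages A to E and 6.40 to 7.60 with ox-LDL, so all vehicle libraries were above all ox-LDL ones; this ratio was looked at after the values were seen and was given no test. In monocytes it was 8.08 ± 1.19 (SD) in the 6 vehicle libraries and 7.56 ± 0.63 in the 5 given ox-LDL. Summed platelet markers (6 genes, with Gp9 and Gp1bb at 0) were 271, 147, 62.3, 55.6 and 143 CPM in macrophages A to E and 61.2 to 139 with ox-LDL, and their part in the ratio was not tested.

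**Figure D5:**
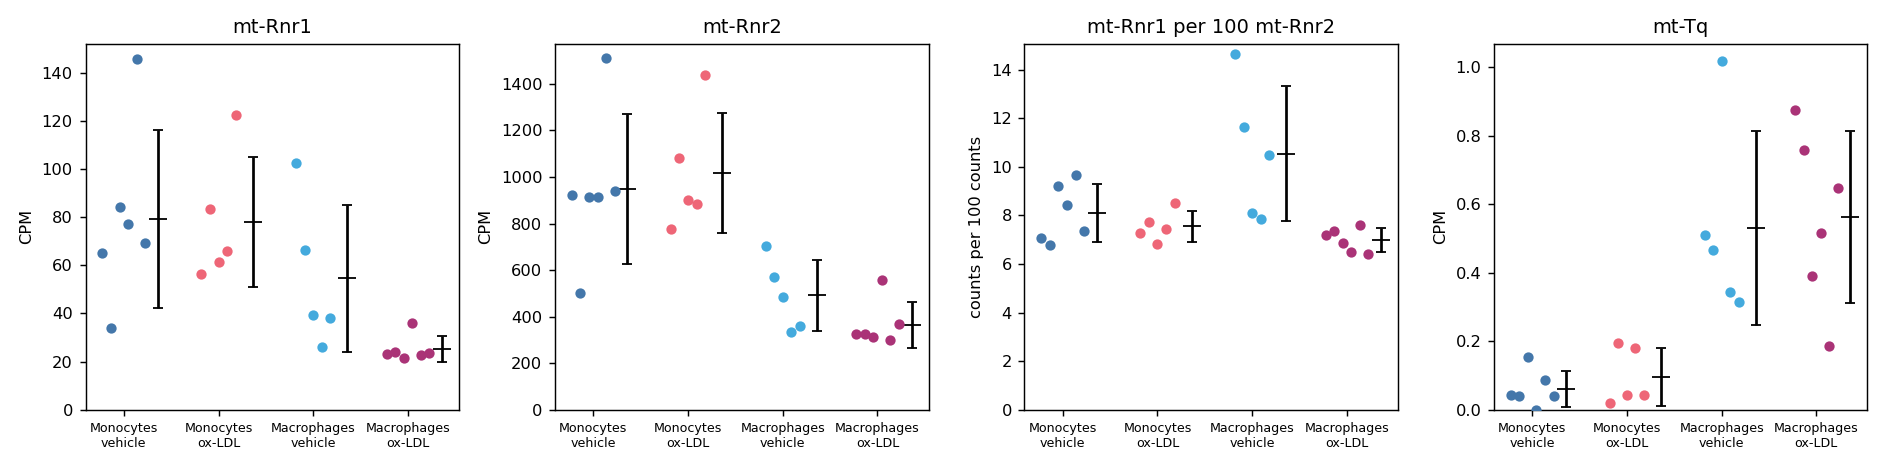
CPM of mt-Rnr1, mt-Rnr2 and mt-Tq, and counts of mt-Rnr1 per 100 of mt-Rnr2, in each library (linear axes from 0; points are libraries, bars mean ± SD). Macrophage library A stands highest of its group for both rRNAs and library J of the ox-LDL group, and the ratio lies at 7.84 or more with vehicle and at 7.60 or less with ox-LDL.

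The ox-LDL effect was not shown to differ between cell types for any mitochondrial gene. In the interaction test over all 4 groups 0 of 17 genes were called by edgeR, where 0.063% of all genes were. For mt-Rnr1 the difference of log2 effects was -1.07 ± 0.44, with an unadjusted p of 0.0244 and an edgeR adjusted p of 0.635, and it was the only gene with an unadjusted p under 0.05. mt-Atp8, which shares 43 bases with mt-Atp6, was tested in this comparison alone and had 2 to 20 counts a library.

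Among nuclear genes that serve the mitochondrial genome, called genes lay in both directions, beside 28.5% of all genes called higher in macrophages and 35.1% lower with vehicle, and 30.3% and 35% with ox-LDL. Of 10 genes of mitochondrial DNA transcription tested with vehicle, 2 were higher and 2 lower in macrophages, among them Polrmt, the mitochondrial RNA polymerase (log2 fold change 0.84 ± 0.14), Tfb2m, its initiation factor (0.51 ± 0.14), and Mterf1a, a member of the termination factor family (-1.07 ± 0.29). Of 13 genes of replication, 5 were higher and 3 lower, with Dna2, a nuclease-helicase, at -1.61 ± 0.16, Primpol, a primase-polymerase, at -1.03 ± 0.13 and Mgme1, an exonuclease, at 0.63 ± 0.10. Of 10 regulators of biogenesis, 2 were higher and 4 lower: the coactivator gene Ppargc1b was at 1.73 ± 0.21, Gabpb1, a subunit of NRF-2, at -1.62 ± 0.12 and Ppargc1a, another coactivator gene, at -6.65 ± 0.60, with 3.86 ± 1.21 CPM in vehicle monocytes (SD, n = 6) and 0.0385 ± 0.0528 in vehicle macrophages (n = 5), so low that the fold change depends on the prior count of the fit. Ppargc1a passed the filter on low counts through the monocytes, where it is high, and the counts of its list hold it. With ox-LDL the counts were 2 higher and 3 lower of 11, 4 and 5 of 13, and 4 and 4 of 10.

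Of 33 genes tested with vehicle that process or stabilise mitochondrial RNA, 45.5% were called, against 63.7% of all genes. With vehicle 12 were higher and 3 lower, with a median of 0.30 against -0.09 over all genes, and with ox-LDL 12 were higher and 4 lower, with a median of 0.18 against -0.07. Lrpprc, which stabilises mitochondrial mRNAs, was higher at 1.06 ± 0.11 with vehicle and 1.16 ± 0.09 with ox-LDL. Nsun4, an rRNA methyltransferase of the mitochondrial ribosome, was lower at -1.35 ± 0.14 and -1.72 ± 0.16, and Ptcd2, a pentatricopeptide repeat protein, at -1.89 ± 0.13 and -1.87 ± 0.13. Lrpprc was also higher with ox-LDL than with vehicle in macrophages, by 0.28 (edgeR adjusted p = 0.0213), and was the 1 gene of its list called there.

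Genes of mitochondrial ribosomal proteins were called at 37.7% with vehicle and 45.5% with ox-LDL. Nuclear genes of the respiratory chain and of ATP synthase, taken as 1 list, were called at 40% and 41.1%. Of all genes, 63.7% and 65.4% were called. Of 77 ribosomal protein genes, 11 were higher and 18 lower with vehicle (median -0.07, against -0.09 over all genes) and 4 higher and 31 lower with ox-LDL (median -0.18, against -0.07), where 30.3% of all genes were higher and 35% lower, with Mrpl14 at -1.34 ± 0.12 and -1.47 ± 0.13 and Mrpl45 at -1.39 ± 0.12 and -1.69 ± 0.16. Of 90 genes of the respiratory chain and ATP synthase, 15 were higher and 21 lower with vehicle (median 0.02) and 12 and 25 with ox-LDL (median -0.06). That list was taken by symbol prefixes such as Ndufa, Sdha and Atp5 and so also holds assembly factors, which are not subunits. Among them were Sdhaf1 (-3.55 ± 0.21 with vehicle) and Sdhaf2 (-0.84 ± 0.10), and the counts and medians of the list include all of them. The complex II subunit gene Sdhc was at 0.73 ± 0.10 with vehicle and the complex I subunit gene Ndufs8 at -0.75 ± 0.11 with ox-LDL. In macrophages with ox-LDL, Mrps28 was higher by 0.40 (edgeR adjusted p = 0.0288), and no other gene of these 6 lists apart from Lrpprc was called by edgeR in an ox-LDL comparison or in the interaction.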

How the data were processed

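Per the submitters' processing notes, the authors used STAR 2.7.9a, featureCounts 2.0.3 and GRCm38. The counts the authors deposited are whole numbers of reads. The deposited CPM, FPKM and TPM followed from the counts on every value within a relative tolerance of 1e-06 and were not used further. Not given in the sources used here: strand setting, handling of multi-mapping reads, annotation release. All 37 genes had the same position in GENCODE M21.

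Counts were fitted in edgeR 4.0.16 (R 4.3.3, limma 3.58.1) with TMM factors, filterByExpr, a 2-sided quasi-likelihood F test and Benjamini-Hochberg adjustment over all genes tested; standard errors come from the F statistic. The 5 comparisons and their groups follow the labels, and the fit was tested on simulated data. CPM in the text, and the overlap of groups, use library totals scaled by TMM factors over all 22 libraries; shares use the unscaled totals. Library totals of 37.3 to 50.3, in units of 1000000, set the precision. The labels do not state whether libraries of a group are separate mice or cultures, so the p-values rest on a spread between libraries that may be technical. Copies were found with blastn 2.17.0; the limits of 95% identity and 100 bases were set after the hits were seen. Sequences are those of GENCODE M21 transcripts.

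All mitochondrial rRNA and protein genes are named, and the tRNA genes that passed the filter. From each other list up to 3 called genes with the smallest adjusted p are named; of the lists, 33 of 34 symbols of RNA processing and 9 of 10 erythroid markers matched. The members and lists were chosen with earlier results of these data known. Alternatives were DESeq2 1.42.0, total-count scaling, no filter, limma voom, 1 fit over all groups, for the shares other totals (TMM-scaled, or without neutrophil and erythroid markers) and other sums (protein genes only, or with the nuclear copies), each library left out and, added after seeing the data, leaving out 2 sets of libraries.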

Additional observations from a re-analysis of the deposited data

Results flagged for a closer look

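A library was set apart where its gap to the next, over the range of its group, passed Dixon's 95% value. Chance alone gives about 1 in 20 where groups are independent. These are not, since measures such as the rRNA share and mt-Rnr2 hold the same counts, so no excess over chance can be read from the number. In all, 8 of 92 groups passed. Of these, 5 were ox-LDL macrophage library J: its rRNA share was 0.0588% (the other 5 libraries 0.0305% to 0.0368%), rRNA made up 41.2% of its mitochondrial counts (28.4% to 32.6%), and it had 36.2 CPM of mt-Rnr1 (21.5 to 24.0), 559 CPM of mt-Rnr2 (297 to 368) and 1.78 CPM of mt-Nd3 (0.391 to 0.869). Ox-LDL macrophage library G was low, with 295 CPM of mt-Co1 (338 to 354 in the others) and 150.4 CPM of mt-Cytb (174 to 186). Vehicle macrophage library C was high in mt-Tq, at 1.02 CPM (0.316 to 0.509).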

How the results depend on the processing

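No paired analysis was possible because the groups share no replicate names. The number of mitochondrial genes called for ox-LDL in macrophages was 0 and became 1, mt-Rnr1, with DESeq2, with scaling by total counts, with no filter on low counts and without macrophage libraries C, D, I and J; leaving out 1 library at a time gave 0 to 1, with 1 without D or without J. The cause was not tested. The other counts of called genes stayed within 1.5 times: with 1 library left out, 10 to 13 for macrophages against monocytes with vehicle and 12 to 14 with ox-LDL, and 0 for ox-LDL in monocytes and for the difference. The log2 ratio of the mitochondrial share ran from -1.21 to -0.91 and from -1.37 to -1.22 in the 2 cell type comparisons with 1 library left out, and from -0.0047 to 0.14 and from -0.32 to -0.02 for ox-LDL in monocytes and in macrophages. Of the genes, mt-Nd4l with vehicle was called in 3 of 18 alternatives and kept its ox-LDL call in 14, and mt-Nd3 with ox-LDL was called in 6. Depth limits the tRNA genes, mt-Atp8, mt-Nd3 and mt-Nd4l, with under 100 counts a library.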

Other observations

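Low counts were more often even than odd. Of the values from 1 to 10 over all genes and libraries 68.3% were even, of those from 11 to 20 65.6%, and of the 39860 from 21 to 50 23917 were. In mt-Nd4l and in mt-Atp8, 19 of 22 libraries had an even count. Of the libraries with a count, 17 of 21 were even for mt-Tq, 15 of 21 for mt-Nd3 and 14 of 22 for mt-Tp.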
